A study of Mus musculus with 2 samples.

Results

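The 28 genes described here encode the enzymes of the tricarboxylic acid (TCA) cycle, the pyruvate dehydrogenase complex and its kinases, pyruvate carboxylase, a malic enzyme and the main glutamate-converting enzymes. They were taken from a list of symbols drawn up by function, with earlier results of these data known, and all 28 were matched to rows among 43346 Ensembl gene rows in each table. The data came from 2 libraries of total RNA from which ribosomal RNA had been depleted, made from the mouse line G1E-ER4 after 24 h in 10 nM 17beta-estradiol, with 100 ng of RNA as input and the ScriptSeq kit. G1E-ER4 derives from G1E, an erythroid line grown from Gata1-null embryonic stem cells, and carries GATA1 fused to the ligand-binding domain of the estrogen receptor, so that estradiol restores GATA1 activity and starts erythroid maturation. The labels describe an immortalized male line of strain C57BL/6J and number the libraries as biological replicates 1 and 2, and both libraries share the genotype, the transgene and the estradiol. It is a single cell line, so the spread between replicates covers cultures and libraries and no other line or animal. No untreated library was analysed here: the text below gives levels, ratios within a library and the gap between replicates, and the effect of estradiol was not measured.

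The TCA cycle oxidises acetyl-CoA in mitochondria. Acetyl-CoA enters from pyruvate through the pyruvate dehydrogenase complex, whose kinases switch it off by phosphorylating its first enzyme, while pyruvate carboxylase and glutamate refill the cycle with oxaloacetate and 2-oxoglutarate. In erythroid cells the cycle also supplies succinyl-CoA, which the mitochondrial enzyme ALAS2 joins to glycine in the opening step of haem synthesis.

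The replicates held 62080996 (replicate 1) and 41051158 (replicate 2) expected counts over Ensembl genes. Gata1 stood at 60.0 TPM in replicate 1 and 73.2 TPM in replicate 2. Reads of the introduced GATA1 fusion were not told apart from those of the gene, so this level says nothing about erythroid identity. All 10 erythroid markers, Gata1 included, reached 1 TPM in both libraries. Of 17 markers of lymphoid, myeloid, megakaryocyte, stromal and endothelial cells, 16 were under 1 TPM in both libraries and 7 had 0 counts in both. The exception was the megakaryocyte marker Itga2b, at 2.04 and 1.70 TPM. Nuclear protein-coding genes made up 14.1% and 14.4% of all TPM in replicates 1 and 2, so a level rescaled to protein-coding RNA is 7.09 and 6.95 times the TPM given below.

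Most members were expressed. TPM divides each count by transcript length and by the library sum, which allows levels of different genes to be set side by side. 26 of the 28 members reached 1 TPM in both libraries, against 36.3% of all 21461 nuclear protein-coding genes matched to the annotation. The exceptions were the kinase genes Pdk2 and Pdk4. The median member stood at 11.8 TPM in replicate 1 and 11.6 TPM in replicate 2 (11.7 ± 0.177, SD, n = 2), beside a median of 6.43 TPM over the 7781 protein-coding genes that reached 1 TPM in both, and 20 of the 28 members lay above that median. Together the members held 0.381% of protein-coding TPM in replicate 1 and 0.348% in replicate 2. In these bulk libraries fewer cells with a transcript and less of it in each cell cannot be told apart.

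Ordered by mean TPM, the members ran through Idh1, Cs, Me2, Dld, Mdh1, Sucla2, Pdhb, Dlst, Mdh2, Idh3b, Idh3g, Got2, Glud1, Fh1, Ogdh, Suclg1, Pdha1, Pdk3, Got1, Dlat, Pdhx, Pcx, Suclg2, Idh3a, Pdk1, Idh2, Pdk2 and Pdk4. Of the 27 neighbouring steps in that order, 20 ran the same way in both libraries and 15 of those also differed in mean by more than the larger SD of the 2 genes. The steps that were not apart in this sense were Cs and Me2, the run from Dld through Mdh1 and Sucla2 to Pdhb, Dlst with Mdh2 and Idh3b, Got2 and Glud1, Fh1 with Ogdh and Suclg1, Got1 with Dlat and Pdhx, and Idh2 with Pdk2.

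**Figure D1:**
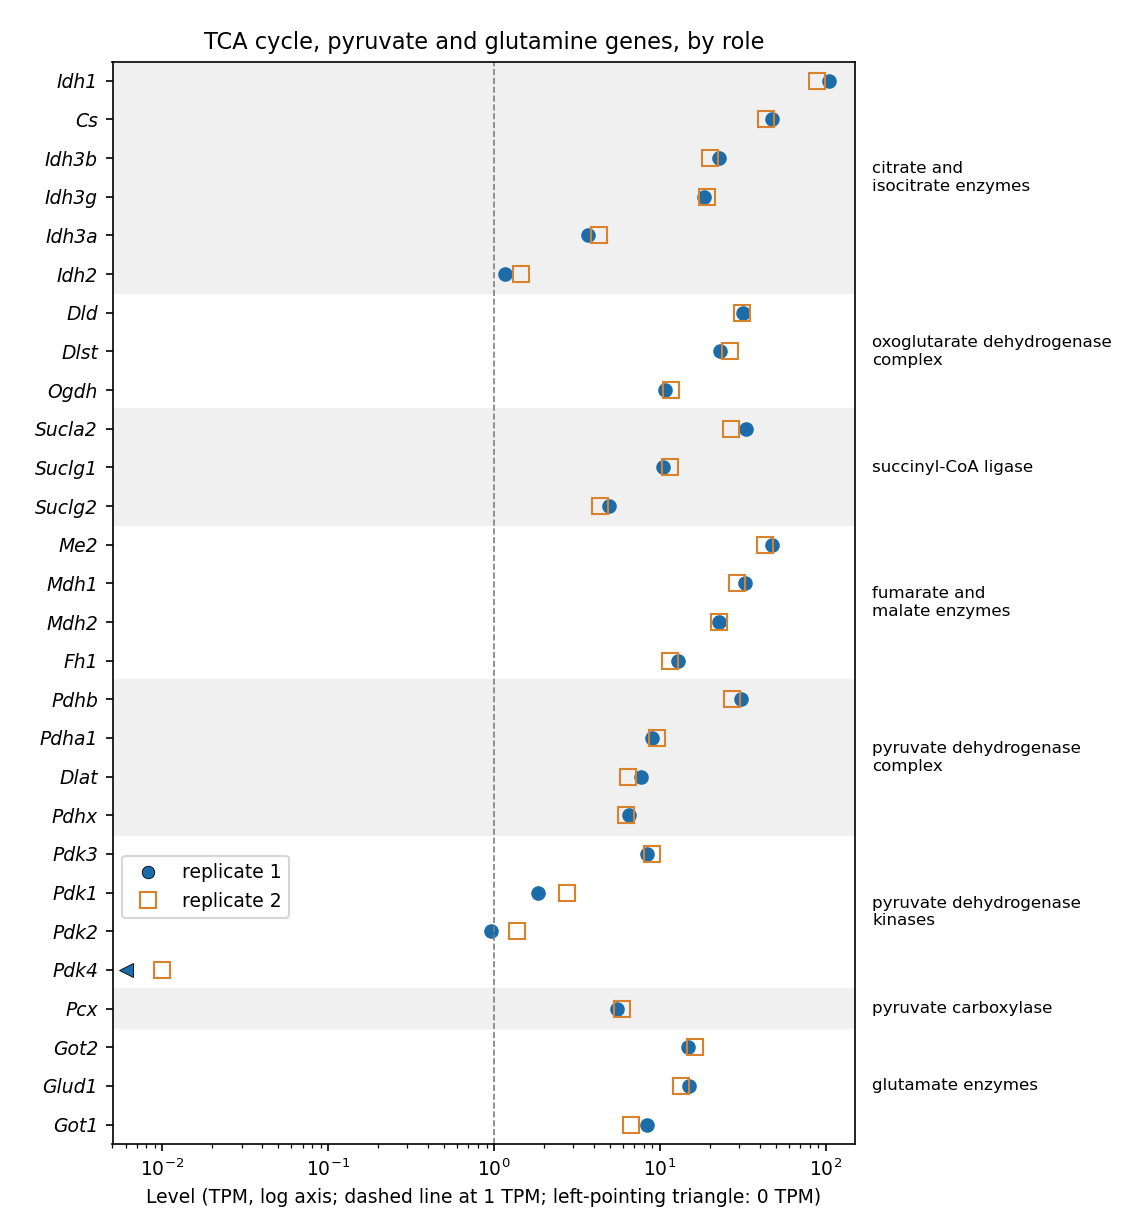
TPM of each of the 28 genes (log axis, dashed line at 1 TPM) in replicate 1 (filled circles) and replicate 2 (open squares), grouped by role and ordered by mean within a role. Idh1 stands highest at 105 and 89.0 TPM, and Pdk4 lies at 0 TPM (triangle at the left edge) and 0.01 TPM.

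The enzymes that make and oxidise citrate and isocitrate held both the highest member and a member close to the lowest. Cs, citrate synthase, which condenses acetyl-CoA with oxaloacetate, had 47.5 TPM in replicate 1 and 43.6 TPM in replicate 2 (45.5 ± 2.81, SD, n = 2) and ranked second of the 28. Isocitrate is oxidised by 3 separate enzymes. Idh2, the mitochondrial NADP-dependent enzyme (ENSMUSG00000030541, chr7:80094846-80115392, minus strand, GRCm38), had 1.17 and 1.46 TPM from 342 and 256 counts, which put it at the percentile 2.89 of the expressed protein-coding genes. Idh1, its counterpart in the cytosol and peroxisomes (ENSMUSG00000025950, chr1:65158616-65186500, minus strand), had 105 and 89.0 TPM from 44346 and 25841 counts, and lay at the percentile 97.2. Idh2 was therefore near the bottom of the expressed genes in both libraries while Idh1 led the members in both. The log2 ratio of Idh2 over Idh1 was -6.49 in replicate 1 and -5.93 in replicate 2 (-6.21 ± 0.39), a level of Idh2 that was 74.0-fold lower. Expected counts without length scaling gave a log2 ratio of -6.84 and a pseudocount of 1 TPM gave -5.40.

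The NAD-dependent isocitrate dehydrogenase of the cycle is built from a catalytic alpha subunit and from beta and gamma subunits that regulate it. Idh3a, the alpha subunit, had 3.70 and 4.27 TPM (3.99 ± 0.403). Idh3b, the beta subunit, had 22.6 and 20.1 TPM (21.4 ± 1.77), and Idh3g, the gamma subunit, had 18.5 and 19.1 TPM (18.8 ± 0.467). The catalytic subunit was thus the lowest of the 3 in both libraries. The log2 ratio of Idh3a over Idh3b was -2.61 and -2.23 (-2.42 ± 0.27) and that of Idh3a over Idh3g was -2.32 and -2.17 (-2.24 ± 0.11), whereas Idh3b over Idh3g was 0.29 and 0.07 (0.18 ± 0.16). In expected counts without length scaling the first ratios were smaller, at -1.53 and -1.23. Idh3a still exceeded Idh2, with a log2 ratio of 1.66 and 1.55 (1.60 ± 0.08), or 2.33 in expected counts.

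The oxoglutarate dehydrogenase complex makes succinyl-CoA from 2-oxoglutarate. Ogdh, its first enzyme (ENSMUSG00000020456, chr11:6291633-6356642, plus strand, GRCm38), had 10.7 and 11.6 TPM (11.1 ± 0.622). Dlst, the succinyltransferase core, had 23.0 and 26.6 TPM (24.8 ± 2.52), and Dld, the dihydrolipoyl dehydrogenase that this complex shares with pyruvate dehydrogenase, had 31.8 and 31.4 TPM (31.6 ± 0.276). Ogdh was the lowest of the 3 in both libraries. The log2 ratio of Ogdh over Dlst was -1.11 and -1.20 (-1.15 ± 0.07), and Dld over Ogdh was 1.57 and 1.44 (SD 0.09), a 2.83-fold higher level. Both ratios depended on how Ogdh was summed: with the TPM of only the transcript that held the most counts they were -2.18 and 2.53, and Dld over Ogdh was 0.74 in expected counts. Cs, at the entry to the cycle, exceeded Ogdh by a log2 ratio of 2.15 and 1.91 (2.03 ± 0.17), or 3.06 with the leading transcripts.

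Ogdh was split between 2 main coding forms. Ogdh-201, in 23 exons, held 48.4% and 49.6% of the gene's TPM in replicates 1 and 2 (49.0 ± 0.877), and Ogdh-202, also in 23 exons, held 33.4% and 31.9% (32.6 ± 1.01). A further coding form, Ogdh-203, held 3.33% and 4.49%. The 2 main forms had 20 exons with the same bounds and used different exons at position 4, of 103 bases in Ogdh-201 and of 91 bases in Ogdh-202. Ogdh-203 had the same exon 4 as Ogdh-202 and an extra exon of 45 bases after it, so it had 24 exons. These exons are printed because they are where the forms of the gene part, from GENCODE M21 transcript sequences on GRCm38, plus strand:
Ogdh-202 exon 4, chr11:6316765-6316855: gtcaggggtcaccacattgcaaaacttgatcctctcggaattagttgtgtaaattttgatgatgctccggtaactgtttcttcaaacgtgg
Ogdh-201 exon 4, chr11:6316978-6317080: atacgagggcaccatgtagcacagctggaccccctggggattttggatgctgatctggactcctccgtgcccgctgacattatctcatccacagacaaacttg
Ogdh-203 exon 5, chr11:6324878-6324922: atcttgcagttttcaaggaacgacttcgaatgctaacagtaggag
The annotated coding regions have 3057 bases in Ogdh-202, 3069 in Ogdh-201 and 3102 in Ogdh-203. The order of the 3 forms by share was the same in both libraries.

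Succinyl-CoA ligase, which turns succinyl-CoA into succinate, pairs the alpha subunit Suclg1 with either an ATP-forming beta subunit, Sucla2, or a GTP-forming one, Suclg2. Suclg1 had 10.4 and 11.5 TPM (11.0 ± 0.771), Sucla2 had 32.9 and 26.8 TPM (29.9 ± 4.31), and Suclg2 had 4.92 and 4.37 TPM (4.64 ± 0.389). The ATP-forming beta subunit was the highest and the GTP-forming one the lowest in both libraries. Sucla2 over Suclg2 gave a log2 ratio of 2.74 and 2.62 (2.68 ± 0.09), a 6.40-fold higher level, which was 1.88 with only the leading transcript of each gene. The shared subunit lay between them, with Suclg1 over Suclg2 at 1.09 and 1.40 (1.24 ± 0.22) and Suclg1 over Sucla2 at -1.65 and -1.22 (-1.44 ± 0.31). The first of these was 0.59 in expected counts, and the second -0.68 with the leading transcripts. Sucla2 itself was divided between Sucla2-201, at 57.5 ± 4.21% of its TPM, and Sucla2-203, at 34.0 ± 4.26%.

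Fumarate and malate are handled by Fh1, Mdh1, Mdh2 and Me2. Fh1, fumarate hydratase, had 12.9 and 11.5 TPM (12.2 ± 0.976). Mdh2, the mitochondrial malate dehydrogenase of the cycle (ENSMUSG00000019179, chr5:135778480-135790398, plus strand, GRCm38), had 22.6 and 22.8 TPM (22.7 ± 0.156), and its cytosolic counterpart Mdh1, which works in the malate-aspartate shuttle, had 32.7 and 29.3 TPM (31.0 ± 2.39). Me2, the mitochondrial NAD-dependent malic enzyme that turns malate into pyruvate, had 47.7 and 42.9 TPM (45.3 ± 3.42). The cytosolic malate dehydrogenase was above the mitochondrial one in both libraries and the malic enzyme was above both. The log2 ratio of Mdh2 over Mdh1 was -0.53 and -0.36 (-0.45 ± 0.12), or -1.04 with the leading transcripts. Me2 over Mdh2 was 1.08 and 0.91 (1.00 ± 0.12), or 2.09 in expected counts and 2.01 with the leading transcripts. Fh1 over Mdh2 was -0.80 and -0.98 (-0.89 ± 0.13), or -0.35 in expected counts and -0.71 with the leading transcripts.

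Mdh2 showed the lowest protein-coding share of the 26 members at or above 1 TPM. Its full-length coding transcript Mdh2-201, of 1456 bases in 9 exons, held 49.2% and 49.6% of the gene's TPM in replicates 1 and 2 (49.4 ± 0.255). Mdh2-203, of 1112 bases in 8 exons and annotated as a target of nonsense-mediated decay, held 46.3% and 44.2% (45.3 ± 1.49). By level the forms were close, at 10.5 and 10.1 TPM for Mdh2-203 and 11.1 and 11.3 TPM for Mdh2-201. By expected counts Mdh2-203 had 1951 and 1280, which was 38.9 ± 1.18% of the gene, and Mdh2-201 had 2856 and 1987. Mdh2-203 joins exon 1 directly to exon 3 and so lacks exon 2, whose 169 bases leave a remainder of 1 on division by 3. The annotated coding region of Mdh2-203 has 153 bases against 1014 in Mdh2-201. Of the 8 exons of Mdh2-203, 6 have the same bounds in Mdh2-201, so the forms also differ outside exon 2. The split between them was not traced to exon 2 alone. The skipped exon and the junctions that tell the forms apart are printed from GENCODE M21 transcript sequences, with the first 15 bases of the downstream exon in capitals:
Mdh2 exon 2, chr5:135783305-135783473, plus strand: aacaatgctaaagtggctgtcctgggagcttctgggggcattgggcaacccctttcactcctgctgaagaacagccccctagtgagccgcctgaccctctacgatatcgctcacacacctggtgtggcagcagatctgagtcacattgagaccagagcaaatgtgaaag
Mdh2-203, exon 1 to exon 3: agcacttcggcccagGCTACCTTGGACCGG
Mdh2-201, exon 1 to exon 2: agcacttcggcccagAACAATGCTAAAGTG
Mdh2-201, exon 2 to exon 3: gagcaaatgtgaaagGCTACCTTGGACCGG
The tables hold no reads over single junctions, so the split rests on the authors' assignment of reads to whole transcripts.

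The pyruvate dehydrogenase complex was led by its beta subunit. Pdha1, the alpha subunit of the first enzyme and the target of the kinases, had 8.96 and 9.57 TPM (9.27 ± 0.431), and Pdhb, the beta subunit of the same enzyme, had 30.7 and 27.0 TPM (28.9 ± 2.62). Dlat, the acetyltransferase core, had 7.68 and 6.40 TPM (7.04 ± 0.905), and Pdhx, which anchors the dihydrolipoyl dehydrogenase Dld to that core, had 6.55 and 6.21 TPM (6.38 ± 0.240). Pdhb stood above the other genes particular to the complex in both libraries. Pdha1 over Pdhb gave a log2 ratio of -1.78 and -1.50 (-1.64 ± 0.20), which was -0.70 in expected counts, and Dld over Pdha1 gave 1.83 and 1.71 (1.77 ± 0.08). Pdha1, Dlat and Pdhx lay closer together, with Pdha1 over Dlat at 0.22 and 0.58 (0.40 ± 0.25). Dlat over Pdhx was 0.23 and 0.04 (0.14 ± 0.13), and it turned to -0.45 when only the transcript with the most counts was used, so no order of Dlat and Pdhx is given.

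Of the 4 kinases that inactivate the complex, Pdk3 was the highest and Pdk4 was barely detected. Pdk3 had 8.36 and 8.97 TPM (8.67 ± 0.431). Pdk1 had 1.84 and 2.74 TPM (2.29 ± 0.636) and Pdk2 had 0.96 and 1.37 TPM (1.17 ± 0.290). The order Pdk3, Pdk1, Pdk2 was the same in both libraries. Pdk3 over Pdk2 gave a log2 ratio of 3.12 and 2.71 (2.92 ± 0.29), or 2.16 with a pseudocount of 1 TPM. Pdk1 over Pdk3 gave -2.18 and -1.71 (-1.95 ± 0.33), or -1.01 in expected counts and -2.75 with the leading transcripts. Pdk1 over Pdk2 gave 0.94 and 1.00 (0.97 ± 0.04), or 2.06 in expected counts. Against the enzyme that it phosphorylates, Pdk1 over Pdha1 was -2.28 and -1.80 (-2.04 ± 0.34), or -2.73 with the leading transcripts.

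Pdk4, the kinase known for its induction by fasting in muscle and liver (ENSMUSG00000019577, chr6:5483351-5496309, minus strand, GRCm38), had 0 counts in replicate 1 and 3 counts in replicate 2, listed as 0 and 0.01 TPM. A count of 0 in replicate 1 allows a share of up to 3 counts, or 4.83e-06% of the library. With the Pdk4 counts placed on its coding transcript Pdk4-201, of 3484 bases, and divided by effective length, Pdk1 was 412-fold higher than that floor in replicate 1. In replicate 2 the ratio was 424 on the same basis, with an exact 95% counting interval of 145 to 2058. The authors' posterior mean put 94.0% and 80.8% of Pdk4 on Pdk4-202, of 412 bases. Counts placed there give a smaller ratio, so these values are no lower bounds. The size of this ratio depended on the estimate used for Pdk4: on the log2 scale it was 8.71 over both libraries with the floor, 6.40 with the authors' posterior mean TPM and 1.70 with a pseudocount of 1 TPM. Intervals and floors here cover counting error only.

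Pcx, pyruvate carboxylase, which makes oxaloacetate from pyruvate, had 5.49 and 5.93 TPM (5.71 ± 0.311). It was the lower of the 2 routes by which pyruvate enters the cycle when set beside the first enzyme of pyruvate dehydrogenase: Pcx over Pdha1 gave a log2 ratio of -0.71 and -0.69 (-0.70 ± 0.01). In expected counts without length scaling the same ratio was -0.01, so the difference between Pcx and Pdha1 was there only per length.

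The glutamate enzymes feed 2-oxoglutarate into the cycle or exchange the amino group of glutamate. Glud1, mitochondrial glutamate dehydrogenase, had 14.99 and 13.3 TPM (14.2 ± 1.18). Got2, the mitochondrial aspartate aminotransferase, had 14.7 and 16.3 TPM (15.5 ± 1.09), and Got1, its cytosolic counterpart, had 8.31 and 6.68 TPM (7.49 ± 1.15). Got2 was above Got1 in both libraries, with a log2 ratio of 0.83 and 1.28 (1.06 ± 0.32), or 1.76 in expected counts. Glud1 over Got2 was 0.03 and -0.29 (-0.13 ± 0.22), which differed in sign between the libraries, and was -1.15 with the leading transcripts. Across the 3 cytosolic and mitochondrial pairs the order was not uniform: the mitochondrial gene was lower for Idh2 over Idh1 and Mdh2 over Mdh1, and higher for Got2 over Got1.

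Over all 26 ratios set between members, 16 were 2-fold or more apart in both libraries. Of the 26, 25 had the same sign in both libraries and a mean larger than their SD, and the exception was Glud1 over Got2. For Pdk1 over Pdk4 the replicate 1 value was a floor and its SD no replicate spread; without that pair the counts were 15 and 24 of 25. The pairs were chosen with earlier results of these data known, and no share over other pairs of expressed genes was taken. These counts therefore describe the pairs chosen and are no trait of the members. With 2 libraries an exact two-sided sign-flip test cannot give a p under 0.5, so the ratios carry no test. Expected counts, which leave gene length in, moved 12 of the 26 by more than 1.5 times, and the TPM of the leading transcript moved 11. The leading-transcript alternative was added after the data had been seen.

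**Figure D2:**
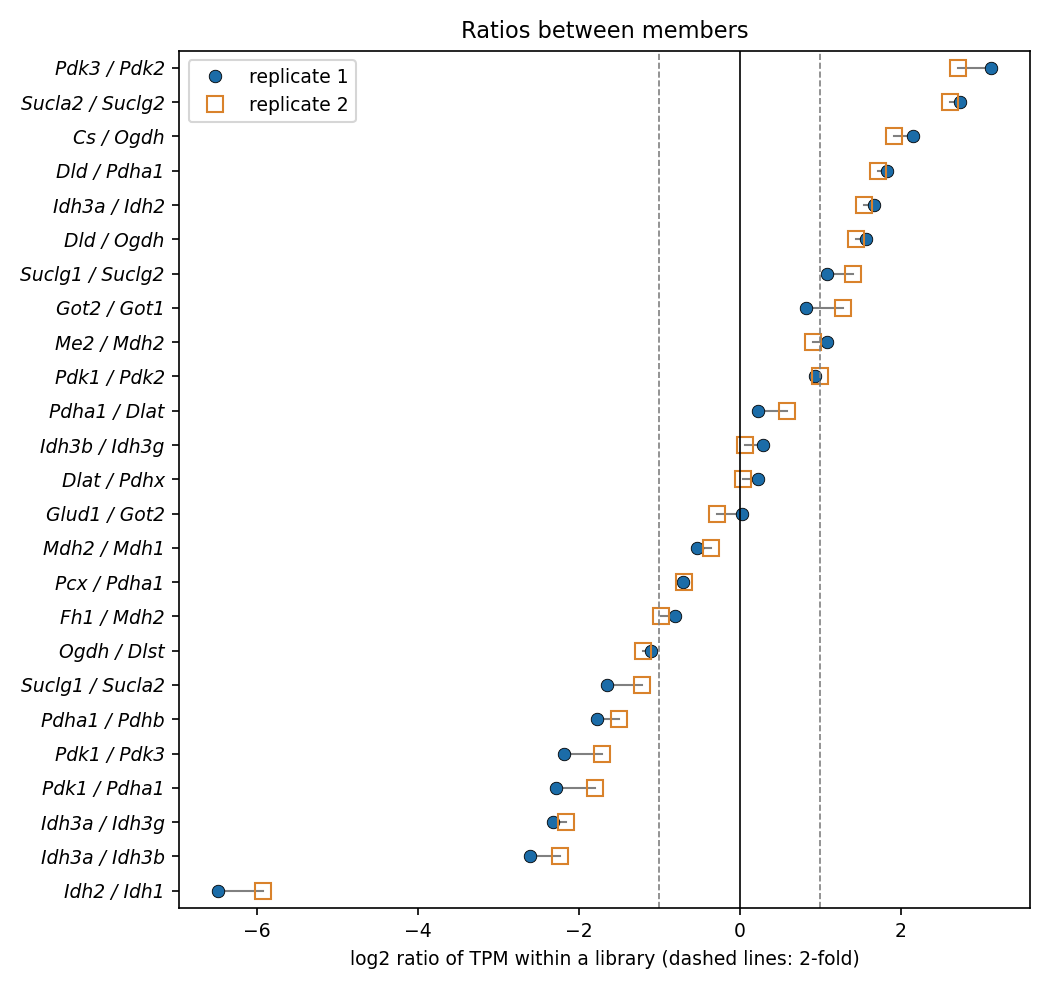
Log2 ratio of TPM within each library for pairs of members (filled circles, replicate 1; open squares, replicate 2), named as the gene on top over the gene below, with dashed lines at 2-fold. Idh2 over Idh1 lies farthest to the left at -6.49 and -5.93, Pdk3 over Pdk2 lies farthest to the right at 3.12 and 2.71, and Pdk1 over Pdk4 is left out because Pdk4 had 0 counts in replicate 1.

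Transcripts annotated as protein coding held most of the members' RNA. Their share of TPM had a median of 96.7% over the 26 members at or above 1 TPM, beside 95.7% over the expressed protein-coding genes. 7 members had a single annotated transcript, and of the other genes Idh1-201 held 96.7 ± 0.255%, Got2-201 held 99.4 ± 0.431%, Pdk3-201 held 99.2 ± 0.368% and Pcx-201 held 100% of the gene. Suclg1-201 held 97.1 ± 1.74%, Pdhx-201 held 93.7 ± 1.07%, Pdha1-201 held 91.7 ± 3.39% and Idh3g-201 held 87.2 ± 2.18%. The single-transcript members were Cs, Idh3a, Dlst, Dld, Suclg2, Pdhb and Me2.

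Retained introns were a small part of most members. 13 of the 26 had a transcript annotated as a retained intron, with a median of 5.36% of TPM beside 11.7% over 3485 expressed protein-coding genes with such a form. 3 members, Got1, Ogdh and Idh2, held at least 10% of TPM in such forms in both libraries, against 48.4% of those 3485 genes. Got1-203 held 29.4% and 30.8% of Got1 TPM from 230 and 129 counts, and Ogdh-205 held 12.5% and 11.7% of Ogdh TPM from 158 and 108 counts. Both are short transcripts, and in expected counts Got1-203 was 9.58% and Ogdh-205 was 2.00% of the gene, so no member reached 10% in both libraries by counts. The low-level gene Idh2 rested on few counts, and its leading coding form Idh2-201 held 78.8 ± 5.95%.

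In several members a short transcript took a large share of TPM from few counts. Glud1-205, of 432 bases, held 46.0 ± 1.53% of Glud1 TPM and 6.25% of its counts, beside 48.9 ± 2.52% of TPM and 91.8% of counts for Glud1-201. Fh1-205, of 542 bases, held 39.1 ± 17.2% of Fh1 TPM and 9.05% of its counts, beside 57.3 ± 15.5% and 89.5% for Fh1-201. The split of Fh1 differed more between the libraries than that of Glud1. Idh3b-204, annotated for nonsense-mediated decay, held 19.2 ± 5.93% of Idh3b TPM and 3.97% of its counts, with Idh3b-201 at 77.1 ± 5.76% of TPM. Transcripts annotated as processed and non-coding took most of the rest in Dlat, Mdh1, Pdk1 and Pdk2. Their leading coding forms were Dlat-201 at 62.6 ± 6.31%, Mdh1-201 at 74.3 ± 0.580%, Pdk1-201 at 57.4 ± 10.4% and Pdk2-201 at 80.8 ± 15.4% of TPM. Got1-201 held 68.9 ± 1.60% of Got1.

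**Figure D3:**
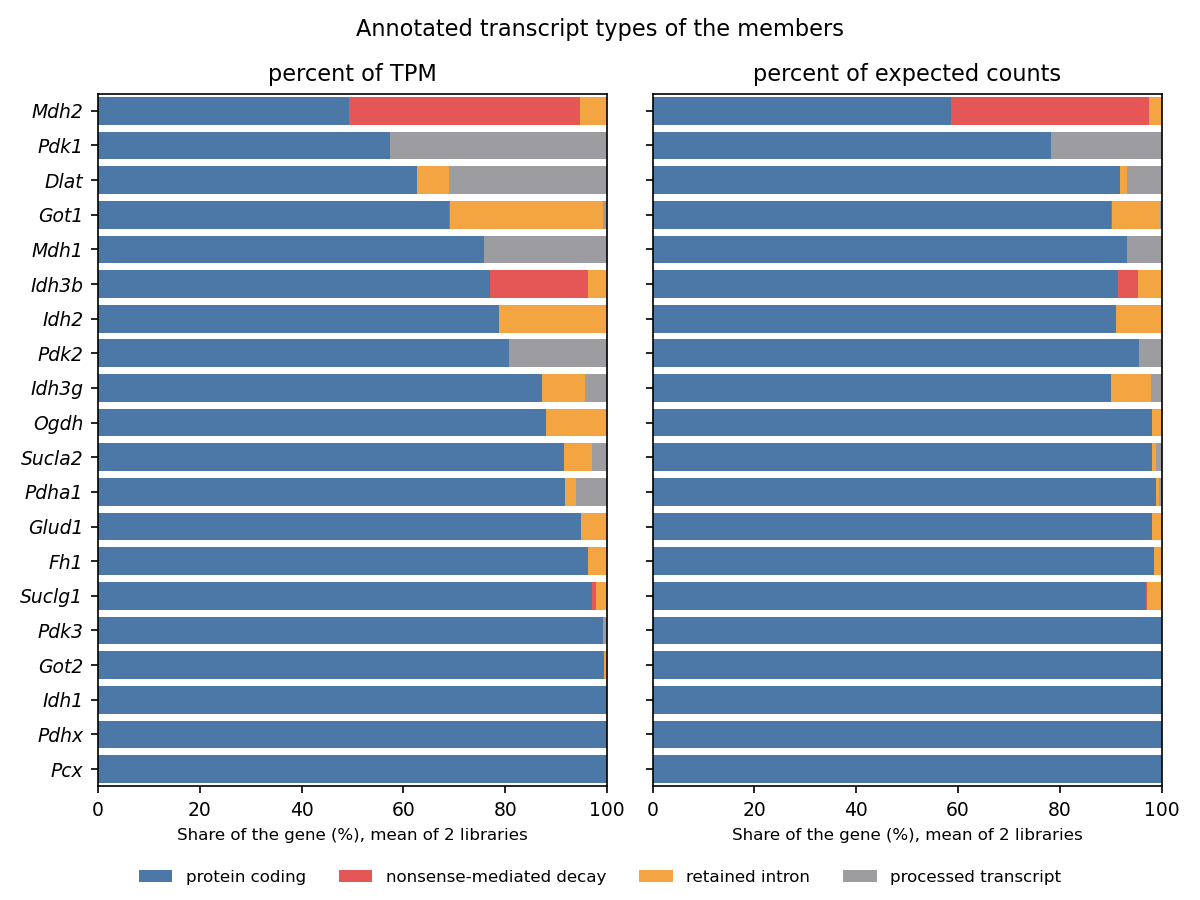
Share of each member held by annotated transcript types, as percent of TPM (left) and percent of expected counts (right), mean of the 2 libraries, for members at or above 1 TPM in mean with more than 1 transcript. Mdh2 has the lowest protein-coding share, 49.4% of TPM, and keeps a large share annotated for nonsense-mediated decay in counts, while the retained-intron share of Got1 shrinks to 9.58%.

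By the median absolute log2 fold, the replicates were about as close for these genes as for all genes tested. Expected counts were scaled by TMM to CPM, counts relative to the scaled library size, and compared where the mean count was 100 or higher. Between replicate 2 and replicate 1, 200 of 9777 genes (2.05%) lay at least 2-fold apart, with 153 up in replicate 2 and 47 up in replicate 1. Of the 27 members that passed the count filter, 0 differed by 2-fold, and 0 differed by 1.5-fold, which 7.87% of the 9777 genes did. The median log2 fold of the 27 was 0.02 beside -0.01 over all genes, and the median absolute log2 fold was 0.15 beside 0.16. 15 members were higher in replicate 2 and 12 were higher in replicate 1.

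The members farthest apart were Pdk1, Got1 and Fh1. Pdk1 had 31.7 CPM in replicate 2 and 23.9 CPM in replicate 1, a log2 fold of 0.41 with a 95% counting interval of 1.23 to 1.43 on the linear scale. Got1 had 31.9 and 39.9 CPM in replicates 2 and 1, a log2 fold of -0.32, and Fh1 had 69.8 and 56.9 CPM, a log2 fold of 0.30. For 21 of the 27 the counting interval of the fold left out 1, so the depth resolved differences between the libraries that were under 1.5-fold. The share over all genes tested is not given beside it, so this count describes depth and is no trait of the members. For Fh1 the order turned with the unit: its CPM was higher in replicate 2, whereas its TPM was 11.5 in replicate 2 and 12.9 in replicate 1. Pdk4 was left out by the count filter, at 3 counts in replicate 2 and 0 in replicate 1.

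**Figure D4:**
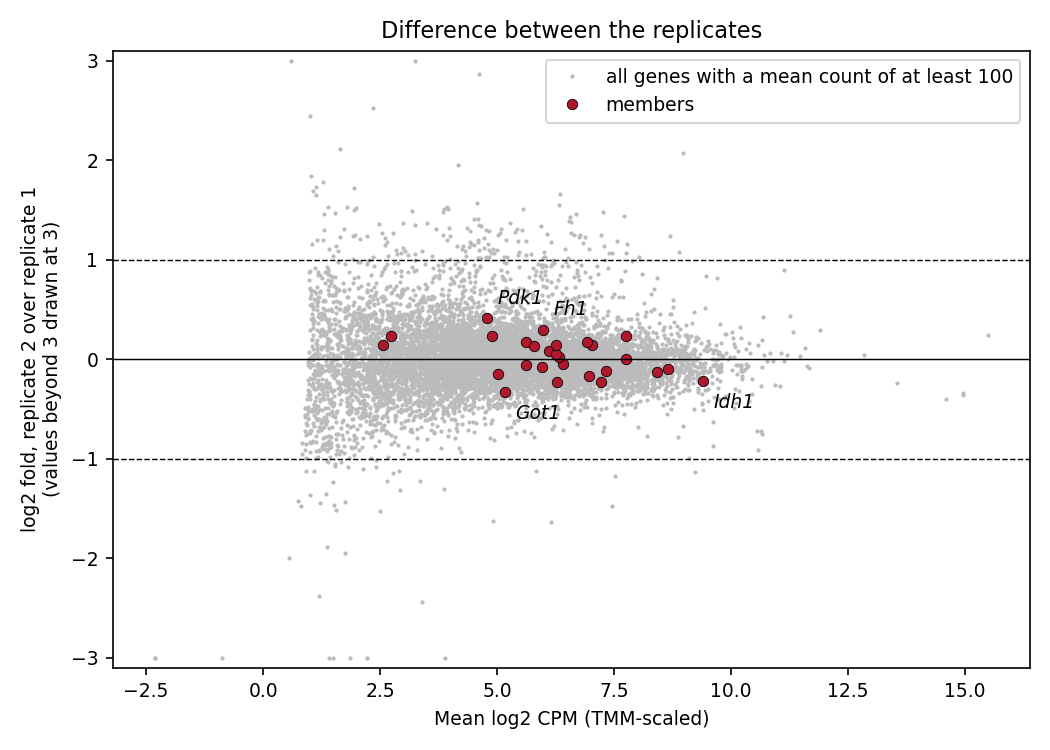
Log2 fold of replicate 2 over replicate 1 against mean log2 CPM for genes at a mean count of 100 or higher (grey) and the 27 members among them (coloured). The members lie between -0.32 (Got1) and 0.41 (Pdk1), inside the 2-fold lines that 2.05% of all genes pass.

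The rest of the pathway was taken from a list of 47 genes that act beside the members, of which 29 reached 1 TPM in both libraries and 18 did not, with a median of 2.02 TPM. The highest of them included the succinate dehydrogenase subunits Sdhd (83.1 and 80.2 TPM) and Sdha (24.5 and 26.5 TPM), lactate dehydrogenase A (Ldha, 52.6 and 62.0 TPM), the mitochondrial pyruvate carrier subunits Mpc1 (42.1 and 42.7 TPM) and Mpc2 (26.6 and 27.0 TPM), the oxoglutarate carrier Slc25a11 (38.5 and 43.5 TPM) and ATP-citrate lyase (Acly, 32.3 and 33.1 TPM). Each of these named genes lay above the median member in both libraries, but they were picked as the highest of the list. The median of the whole list was below that of the members. How many list genes reached a cut-off of 1 in both libraries depended on the unit. That number was 29 in TPM, 37 in FPKM and 38 for levels rescaled to protein-coding RNA.

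Several paralogs of expressed genes were under 1 TPM in both libraries, and some of them were near or at 0. Ldhb, the other main lactate dehydrogenase subunit, had 0 and 4 counts beside the high Ldha. The other malic enzymes were low next to Me2. Me1, the cytosolic one, was not near 0, with 0.69 and 0.91 TPM from 435 and 322 counts. Me3 had 0 and 16 counts. Among paralogs of cycle enzymes, Ogdhl had 0.07 and 0.05 TPM, Csl had 0.09 and 0.11 TPM, and Dhtkd1 had 3 and 2 counts. Pdha2, the testis form of the alpha subunit of pyruvate dehydrogenase, had 2 and 0 counts, and Pck1, the cytosolic phosphoenolpyruvate carboxykinase, had 1 and 0. The alanine aminotransferases were Gpt at 0.23 and 0.25 TPM and Gpt2 at 0 counts in both. The lipoylation genes Lipt1 (0.61 and 0.65 TPM) and Lipt2 (0.67 and 0.45 TPM), the glutamate carrier Slc25a22 (0.68 and 0.34 TPM), the sirtuins Sirt4 (1.59 and 0.75 TPM) and Sirt5 (0.57 and 0.45 TPM) and the proline enzyme Pycr1 (0.04 and 0.18 TPM) were also under 1 TPM in at least 1 library.

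Members differed in how securely their reads could be placed. The authors' posterior SD of the count was 0 in both libraries for 24 of the 28, and above 0 for Cs, Suclg2, Pdhb and Got2, with a highest value of 8.28 counts. 4 members share exon bases with a gene on the opposite strand: Idh3b with Nop56 over 5 bases, Mdh1 with Wdpcp over 52, Pdha1 with Map3k15 over 603 and Got2 with Gm45760 over 434. Whether strand was used in counting is not given in the sources used here, so reads in those bases cannot be told apart by strand, and Map3k15 itself had 209 and 130 counts beside 4616 and 3239 for Pdha1.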

How the data were processed

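Total RNA of 2 biological replicates of G1E-ER4 treated with estradiol was measured. For each library there was a gene table and a transcript table. The expected counts deposited in them were rounded only for DESeq2. TPM was deposited by the authors and has 1 common sum per library. FPKM, deposited beside it, entered 1 alternative. Each transcript's percent of its gene came from the deposited transcript tables. Credible bounds of TPM, a signal with no fixed sum, were deposited too, with no stated level, and no result rests on them. The text deposited with the tables names mm10 and GENCODE M4. Not given in the sources used here are aligner, quantification program and strand use.

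Symbols, coordinates, transcript types and sequences came from GENCODE M21 on GRCm38, which matched 42462 of 43346 Ensembl rows. 26248 rows with numeric identifiers, holding 18 and 5 counts, and 97 other rows with 0 counts were left out. The members, the pathway list, the pairs and the markers were chosen with earlier results of these data known. The genes named were all members, the 8 highest of the pathway list and every list gene under 1 TPM in either library, of which some are not reported here; transcripts named beyond the leading and retained-intron ones were chosen after their values were seen. Levels are TPM, with mean ± SD over 2 libraries, and ratios were taken within a library with no pseudocount, with Pdk4 set at a floor of 3 counts where it had 0. Replicate differences used TMM from edgeR 4.0.16 under R 4.3.3 with a prior count of 0.5 and a minimum mean count of 100; DESeq2 1.42.0 size factors were an alternative. A chi-square of 75.8 per degree of freedom over 12223 genes showed that the libraries differed by more than counting error. It cannot tell separate cultures from separate preparations of the same RNA. With 1 group there was no test between conditions and no p-value. The steps were checked on simulated counts. Python 3.11.15 and scipy 1.17.1 were used.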

Additional observations from a re-analysis of the deposited data

How the results depend on the processing

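The number of members at 1 TPM or more in both libraries was 16 at a threshold of 10 TPM, and the pathway list had 18 genes at 5 TPM and 15 at 10 TPM. A cut-off of 1 in FPKM kept 37 list genes, and the same cut-off on levels relative to protein-coding RNA kept 38. The members' median was 39.5 in FPKM, 82.0 TPM when rescaled to nuclear protein-coding genes, 13.2 TPM over the members at or above 1 TPM in both libraries, and 8.54 TPM for the transcript with the most counts, an alternative chosen after seeing the data. With that alternative Dlat over Pdhx turned to -0.45 on the log2 scale. With no filter on low counts 1 member, Pdk4 at 3 and 0 counts in replicates 2 and 1, was 2-fold apart, where 40.4% of 20990 genes were. The median protein-coding share was 96.1% with posterior means and 98.7% in expected counts, and by counts 0 members held at least 10% in retained introns in both libraries. Of 128 ratios recomputed under other units, pseudocounts or transcripts, 71 moved by less than the SD between replicates, 56 moved further and Dlat over Pdhx turned. The 71 include all ratios in FPKM, which could not move, since FPKM differs from TPM by a common factor within a library. The 71 therefore overstate how stable the ratios were. Single libraries are left out of these counts, since with 2 libraries each lies within the SD by construction; Glud1 over Got2, at -0.13 in mean, was 0.03 in replicate 1 alone. Of 54 leading transcript shares, 33 stayed within that SD and 21 moved, and the 7 members with a single transcript could not move. Ratios between genes and transcript shares rest on the authors' length scaling and on 2 libraries, and genes of few counts, such as Idh2, Pdk2 and Pdk4, are limited by depth. No paired analysis was possible because the libraries form 1 group.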
